A study of Bos grunniens with 18 samples.

Results

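ADAM28 is 1 gene of the 18467 in the expression table of a study of m6A, the methylated adenosine (N6-methyladenosine) of messenger RNA, in the epididymis of the yak (Bos grunniens). Its members are the single expression record with that symbol (identifier ENSBGRG00000014430, protein coding), every m6A peak that the comparison tables assign to that identifier, and every candidate adenosine in a listed peak that overlaps them by at least 1 base. ADAM28 was chosen by the authors' folds and adjusted p of its peaks and by its candidates, with those values known, so its peak values are a description and were not tested again. It had 5 peaks of the 14061 compared between corpus and caput, 4 of the 13826 compared between cauda and caput, and 0 of the 13917 compared between cauda and corpus. It had 37 of the 103462 candidate adenosines of the caput list, 0 of 99547 in the corpus list and 0 of 103697 in the cauda list.

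Epididymides of 6 healthy male yaks, 4 years old and given no treatment that the labels name, were cut into head (caput), body (corpus) and tail (cauda). Poly(A) RNA of whole tissue was fragmented, and sequenced either after pull-down with an m6A antibody (RIP) or without it (input), with 3 RIP and 3 input libraries per region, 18 in all. The labels do not tie a library to an animal, so a spread between libraries may be technical. The peak tables hold 1 value per peak and no value per library, and their depth is unknown. Only the 9 input libraries have values of their own, under codes that start with EA, EB or EC. These codes match no label, so no input library below is assigned to caput, corpus or cauda.

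ADAM proteins are membrane-anchored or secreted proteins with a metalloprotease domain and a disintegrin domain, which can bind integrins. In some members, but not all, the metalloprotease domain cuts other proteins at the cell surface. ADAM28 was first described in lymphocytes and in the epididymis, and its close relative ADAM7 is a secretory product of the epididymal epithelium that reaches sperm. The m6A mark is set by a methyltransferase complex built around METTL3 and METTL14, can be removed by FTO and ALKBH5, and is bound by YTH-domain proteins that alter the stability and translation of a transcript. The antibody pulls down RNA fragments, so a peak marks a stretch of transcript and not a single adenosine.

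The ADAM28 peaks lay on chromosome 7, plus strand, between 6646186 and 6766925, a stretch of 120740 bases. Coordinates are those of the authors' deposited tables, counted from 1, and the sources used here name no genome build. Each peak runs from its first to its last base with introns included, and the 5 peak places add up to 1748 bases once introns are taken out. Whether a peak lies in coding or untranslated sequence was not analysed here. The peaks are numbered below from the 5′ end. Peak 1 (6646186 to 6679107) was the longest, with 848 bases of transcript spread over 32922 bases of genome. Peak 2 (6693516 to 6713749) had 151 bases of transcript, peak 3 (6716159 to 6719909) had 200 and peak 4 (6736159 to 6759385) had 150. Peak 5 ended at 6766925 with 399 bases of transcript in the comparison of corpus with caput, and at 6766875 with 349 in that of cauda with caput, from the same start at 6759721.

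The candidate adenosines of ADAM28 were listed in the caput alone, and most sat in peaks 1 and 5, the longest and the outermost. Peak 1 held 19 of the 37, peak 5 held 12, peak 3 held 5, peak 2 held 1 and peak 4 held 0. A candidate is an adenosine inside a listed peak to which the authors' predictor gave a combined score, and only some were classed as m6A sites. For ADAM28 the classed ones were 6 of 37 (16.2%, 95% Wilson interval 7.65 to 31.1, counting error only), against 19.1% of the whole caput list. The scores ranged from 0.36 to 0.724 with a median of 0.464, and the median of the caput list was 0.441. Neighbouring candidates are not independent, and ADAM28 was chosen with its candidates known, so nothing is read from how these values compare.

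The highest score of the gene, 0.724, belonged to position 6765555 in peak 5, the 1 ADAM28 adenosine classed with very high confidence. The position at 6765535, 20 bases upstream, scored 0.662 and was the 1 classed with high confidence. Both lay near the 3′ end of the stretch of peaks, with position 6765555 standing 1370 bases before the last base of the last peak. In peak 3, positions 6718635 (0.608) and 6718662 (0.601) were of moderate confidence. In peak 1, position 6655225 (0.607) was of moderate and position 6665953 (0.563) of low confidence. Neither class nor score measures how much of the RNA carried the mark. Grouped wherever neighbours were more than 300 bases apart, the 37 positions fell into 15 clusters, 8 of them in peak 1, 5 in peak 5 and 1 each in peaks 2 and 3.

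**Figure D1:**
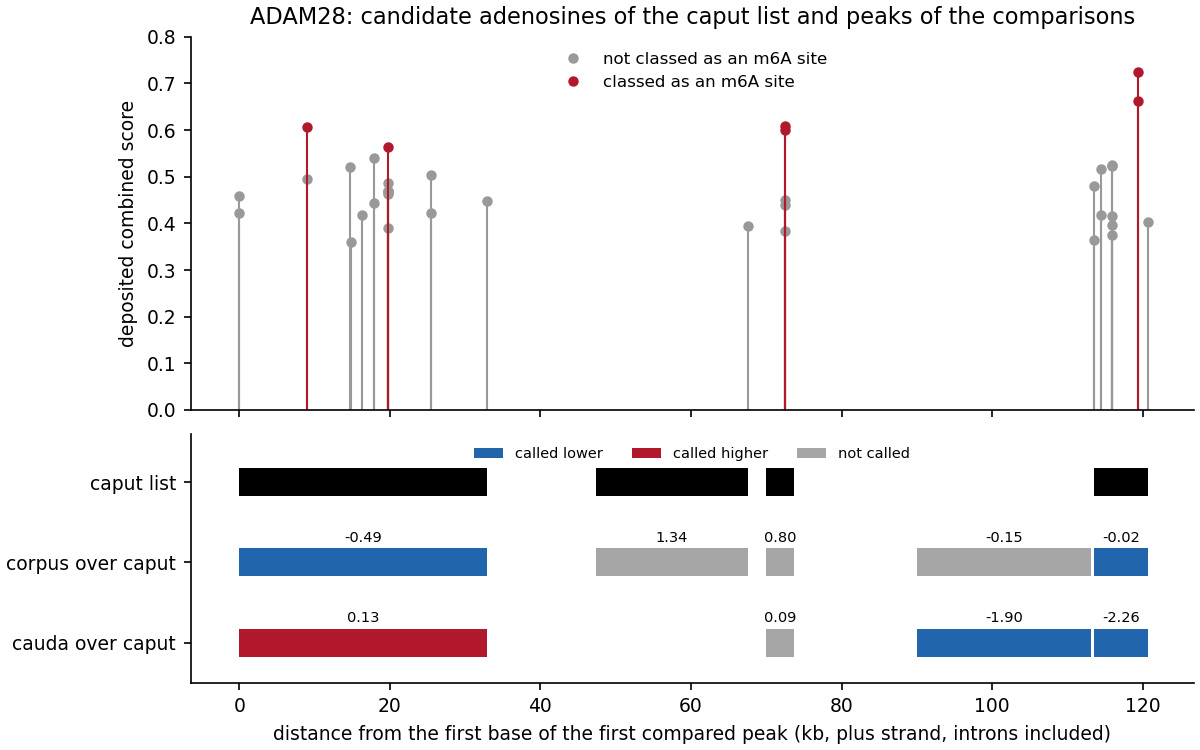
Upper panel: combined score of each of the 37 ADAM28 candidates of the caput list (y axis) against the distance from the first base of peak 1 in kilobases (x axis), with the 6 classed as m6A sites in red. Lower panel: the listed caput peaks (black) and the compared peaks coloured by the authors' call, each with its log2 fold; the highest scores stand at the 3′ end, and peak 4 has no caput peak above it.

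ADAM28 shared its listing in the caput alone with other genes. Of 9629 genes with a compared peak, 8827 held a candidate of some region in a peak span, and 497 of these held caput candidates alone. With 35 of its 37 candidates inside the compared spans, ADAM28 ranked 4th among the 497 by number of candidates, where the median was 4. ADAM28 was chosen with its candidates known, so nothing is read from that rank. The count also takes no account of peak length, which was 1748 bases without introns for ADAM28. Likewise, 821 genes had peaks in both comparisons with the caput and none in the comparison of cauda with corpus, as ADAM28 did. Being listed in the caput alone does not say that the peak was absent elsewhere, since the comparison tables give folds for corpus and cauda at the same places.

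The comparison of corpus with caput asked how the ADAM28 peaks differ along the first part of the duct. In the authors' deposited table, with calls made under an adjusted p of 0.05, 2 of the 5 ADAM28 peaks were lower in the corpus and 0 higher. Over all 14061 peaks, 1.86% were called lower, and since ADAM28 was picked with these calls known, nothing is read from that share. Peak 1 was lower by a log2 fold of -0.49, which is 1.40-fold (p = 6.31e-10, adjusted p = 5.25e-07, the 20th-lowest p of the authors' deposited table). In the authors' deposited table peak 5 was called lower (p = 0.000389, adjusted p = 0.0251) at a log2 fold of only -0.019, a fold of 0.987. The size of that fold is close to none, so the call rests on the p and not on the size. The authors' deposited table did not call peak 4 (log2 fold -0.15, adjusted p = 0.378). In the authors' deposited table peaks 2 and 3, which lie between peaks 1 and 4, had positive log2 folds of 1.34 (adjusted p = 0.743) and 0.80 (adjusted p = 0.783), and neither was called. The largest ADAM28 fold of this comparison, 2.53-fold at peak 2, therefore had a p of 0.298 in the authors' deposited table, while the smallest passed.

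The comparison of cauda with caput spanned the whole duct, and the ADAM28 peaks split there. Peaks 4 and 5, the last toward the 3′ end, were lower in the cauda, and peak 1, the first from the 5′ end, was called slightly higher. Peak 5 was lower by a log2 fold of -2.26, which is 4.79-fold (p = 2.95e-09, adjusted p = 3.39e-06), and by log2 fold it ranked 13th from the bottom of 13826 in the authors' deposited table. Peak 4 was lower by a log2 fold of -1.90, which is 3.73-fold (p = 2.63e-05, adjusted p = 0.00575), which ranked 21st in the same order of the authors' deposited table. In the authors' deposited table peak 1 was called higher (p = 1.26e-07, adjusted p = 7.76e-05) at a log2 fold of 0.13, a fold of 1.10. The authors' deposited table did not call peak 3 (log2 fold 0.093, adjusted p = 0.357). Peak 2 was not among the peaks of this comparison. Over all 13826 peaks, 0.861% were called lower and 1.41% higher; ADAM28 was picked with these calls known, and nothing is read from either share.

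The caput libraries are shared by both comparisons, so the values are set side by side for each peak. Peak 1 stood at -0.49 in the corpus and 0.13 in the cauda, peak 3 at 0.80 and 0.093, peak 4 at -0.15 and -1.90, and peak 5 at -0.019 and -2.26, as log2 folds over the caput in the authors' deposited tables. The same gene thus had called peaks that differed from each other in direction within the cauda comparison, and peak 5 was called lower in both. Peaks are assigned to the gene, so whether they lie on the same transcript form is not known. No table gives a standard error for these folds, so differences between the peaks of ADAM28 were not tested. Whether the folds are taken relative to input is not stated, so they cannot be told apart from differences in the amount of ADAM28 RNA. In bulk tissue, fewer cells of a type and less RNA per cell cannot be told apart either.

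**Figure D2:**
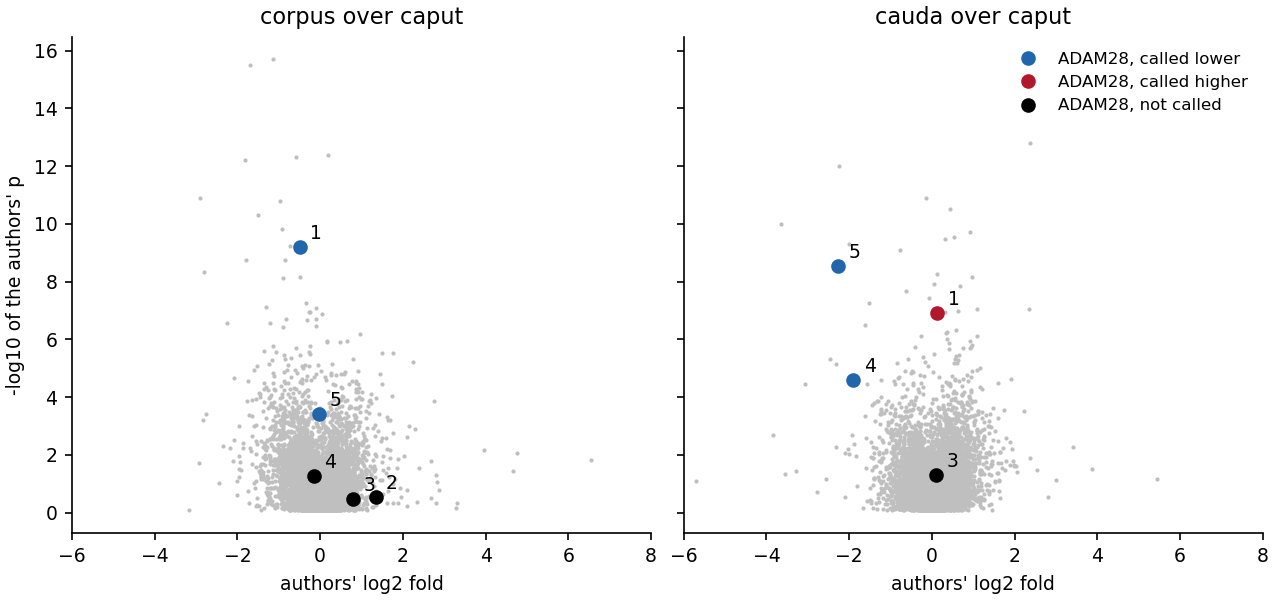
Authors' log2 fold (x axis) against -log10 of the authors' p (y axis) for every compared peak (grey) and for the ADAM28 peaks, numbered from the 5′ end and coloured by call. In the left panel peak 1 stands high at -0.49 and peaks 2 and 3 lie low on the right; in the right panel peaks 4 and 5 lie far left while peak 1 is just right of 0.

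The called-higher peak 1 went against its own listing, since its span held 17 caput candidates and 0 in the cauda. Among the 1772 peaks with candidates in the caput and none in the cauda, 18.7% had a log2 fold above 0, and the median was -0.26. Of the 64 of these that were called in the authors' deposited table, 1 was above 0, and it is ADAM28 peak 1. ADAM28 was chosen with its calls and candidates known, so nothing is read from that count. In the comparison of corpus with caput, 1938 peaks had candidates in the caput and none in the corpus, 14.6% of them had a log2 fold above 0, and the median was -0.34. Peaks 2 and 3 of ADAM28 belong to that 14.6%. Of the 150 of the 1938 that were called in the authors' deposited table, 12 were above 0. Calls at a fold near none, such as those of peak 5 in the corpus and peak 1 in the cauda, occurred elsewhere too. In the authors' deposited tables, log2 folds within 0.2 of 0 made up 37 of 419 called peaks (8.83%) for corpus over caput and 35 of 314 (11.1%) for cauda over caput. The p-values therefore do not follow the deposited folds alone, and the sources used here do not name the test.

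ADAM7, the relative that follows on the same chromosome, showed the reverse occurrence. In the RefSeq annotation of another assembly (Bosgru_T2T1.0), ADAM28, ADAMDEC1 and ADAM7 are consecutive protein-coding genes. The first ADAM7 peak started 66159 bases after the last ADAM28 peak ended. ADAM7 had 3 peaks, all in the comparison of cauda with corpus, at log2 folds of -0.013, 0.077 and -0.017 in the authors' deposited table. None of them was called there (the lowest adjusted p of the authors' test was 0.854). Their spans held 0 candidates in each of the 3 regions. ADAM28 peaks occurred in the comparisons that include the caput, and ADAM7 peaks in the 1 that does not. ADAMDEC1, a soluble decoy relative, had 0 records in the expression table.

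In the input libraries, which measure RNA level and not m6A, ADAM28 was abundant in 2 of 9 libraries and low in the other 7. Levels are FPKM, fragment counts scaled by transcript length and library size, as deposited. The level was 24.9 FPKM in EA2_1, 23.1 in EA3_1 and 0.929 in EA4_1. It was 0.933 in EB1_3, 0.0933 in EB1_4 and 0.0816 in EB2_1. It was 0.456 in EC2_2, 0.103 in EC3_2 and 0.169 in EC4_1. EA2_1 and EA3_1 therefore stood alone at the top, and the libraries whose codes start with the same letters did not form a block. The highest value was 305 times the lowest, and the median was 0.456. EA2_1 and EA3_1 placed ADAM28 at the 79.7th and 80.3rd percentile of all genes, while the other libraries placed it between the 18.9th and the 33.9th.

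The precision of the low values was set by few fragments. Because low FPKM values in a library are whole multiples of what 1 fragment is worth, the smallest whole numbers of ADAM28 fragments that fit the 9 values could be found, all within 0.02 of whole. They were 3926 in EA2_1, 4429 in EA3_1 and 141 in EA4_1. They were 149, 16 and 13 in EB1_3, EB1_4 and EB2_1, and 78, 17 and 29 in EC2_2, EC3_2 and EC4_1. The exact 95% Poisson intervals, which cover counting error only, ran from 24.1 to 25.7 FPKM in EA2_1, from 22.5 to 23.8 in EA3_1 and from 0.0435 to 0.140 in EB2_1. A true count that is a common multiple of these would narrow the intervals.

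Ordered by level, neighbours were often no further apart than counting error. The intervals of EB1_3 and EA4_1 overlapped (0.789 to 1.10 and 0.782 to 1.10 FPKM). The last 4, EC4_1, EC3_2, EB1_4 and EB2_1, overlapped each with the next. Intervals did not overlap between EA2_1 and EA3_1 (ratio 1.08), EA3_1 and EB1_3 (24.8), EA4_1 and EC2_2 (2.04), or EC2_2 and EC4_1 (2.71). Depth differed little, with relative depths between 0.961 and 1.21 times that of EA2_1.

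**Figure D3:**
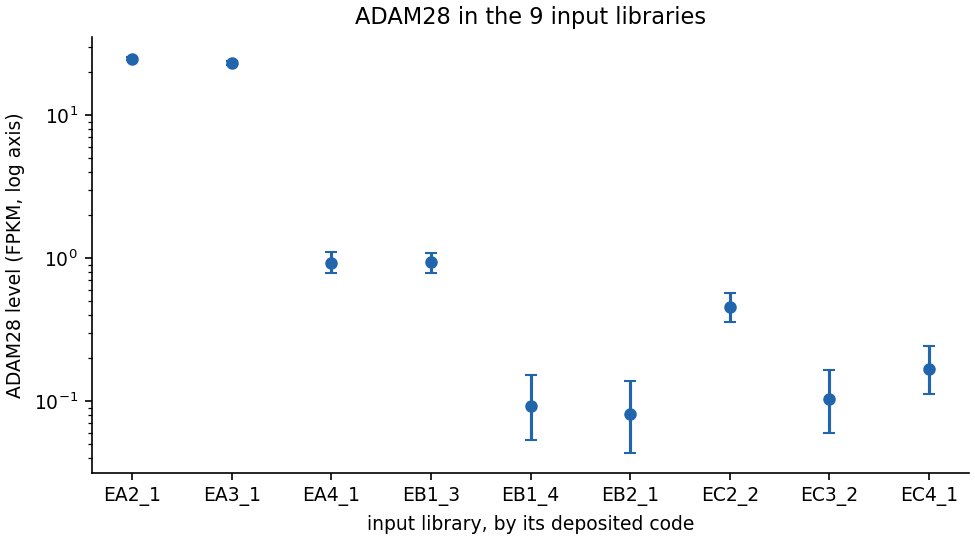
ADAM28 level in each input library (FPKM, log axis), with bars for the exact 95% Poisson interval of the fragment count. EA2_1 and EA3_1 stand at 24.9 and 23.1, EA4_1 and EB1_3 near 0.93, and the other 5 at 0.456 or lower.

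The spread of ADAM28 was wide both over all libraries and among libraries whose codes start alike. On log2(FPKM + 0.1) its range over the 9 libraries was 7.10, where the median of 14006 genes with a symbol and at least 1 FPKM in some library was 1.41. A wider range was found for 277 genes (1.98%). Among EA2_1, EA3_1 and EA4_1 the highest ADAM28 level was 26.8 times the lowest, and only 44 of the 14006 genes (0.314%) had a wider log2 range there. Among EB1_3, EB1_4 and EB2_1 it was 11.4 times the lowest, with 385 genes (2.75%) wider. Among EC2_2, EC3_2 and EC4_1 it was 4.42 times, with 2829 genes (20.2%) wider. ADAM28 was thus among the few most variable genes among the EA codes. Among the EC codes it was less extreme, with a log2 range of 1.45 against a median of 0.699. The 0.1 added before the log is close to its level in EC3_2 (0.103 FPKM), EB1_4 and EB2_1. That narrows its log2 ranges among the EB and EC codes. What the codes stand for is not known.

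**Figure D4:**
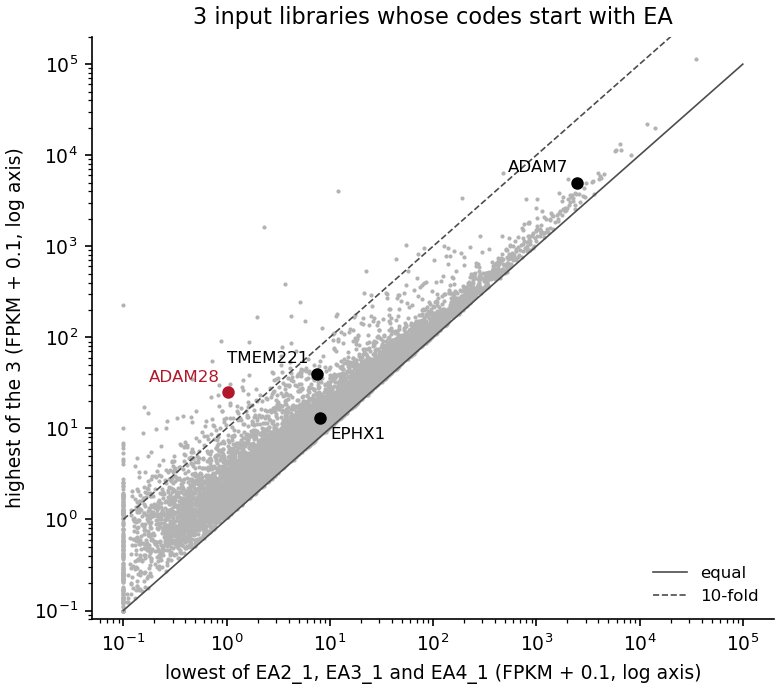
Lowest (x axis) and highest (y axis) level of each gene among EA2_1, EA3_1 and EA4_1, as FPKM + 0.1 on log axes. ADAM28 (red) lies beyond the dashed 10-fold line, while ADAM7, TMEM221 and EPHX1 lie between the lines.

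Other genes of the pathway were followed over the same libraries. The ADAM family list had 20 of 25 symbols in the table, in 25 records since some symbols name several genes, and 19 of these reached 1 FPKM. ADAM7 was far more abundant than ADAM28 everywhere, at 2478, 4967 and 4167 FPKM in EA2_1, EA3_1 and EA4_1. It stood at 1572, 519 and 691 in EB1_3, EB1_4 and EB2_1, and at 275, 861 and 544 in EC2_2, EC3_2 and EC4_1. ADAM7 stayed high in EA4_1, where ADAM28 was low, and its Pearson r with ADAM28 over the 9 libraries was 0.74, the 1 above 0.7 in the list, whose median r was 0.49. The sheddases expressed in most tissues were level by comparison. Adam15 ranged from 20.5 to 44.3 FPKM, ADAM10 from 5.64 to 11.6 and ADAM17 from 4.89 to 7.58. ADAM32, one of the family's testis genes, followed another order, with 53.5 FPKM in EC2_2 and 48.5 in EA2_1 but 7.73 in EA3_1. Of the family's 10, 5 and 14 peaks in the 3 comparisons, 0 were called in the authors' deposited tables. Over all peaks 2.98%, 2.27% and 1.96% were called, so 0 among so few peaks is near that share and says nothing particular of the family.

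Genes listed as possible substrates, partners, convertases or inhibitors of ADAM28 varied less than ADAM28 in each of the 13 records that reached 1 FPKM. The median log2 range was 1.56, and 9 of the 13 were wider than the median gene. Whether each listed gene acts on ADAM28 was not tested. IGFBP3, a carrier of insulin-like growth factors that ADAM28 can cleave, ranged from 129 to 379 FPKM. FURIN, a convertase that removes ADAM prodomains, ranged from 76.8 to 297. The metalloprotease inhibitors TIMP2 and TIMP3 ranged from 93.3 to 428 and from 109 to 257. The list had 14 of 16 symbols, 13 of them at 1 FPKM or more, a median r with ADAM28 of -0.25 and 0 above 0.7. Of the list's 13, 12 and 14 peaks in the 3 comparisons, the 1 called was that of TIMP3. In the authors' deposited table that peak was lower in the cauda than in the caput (log2 fold -0.21, adjusted p = 0.00794). Over all peaks 2.98%, 2.27% and 1.96% were called, and nothing is read from 1 call.

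Epididymal secretory genes included some that shared the high libraries with ADAM28 and some that ran the other way. The list had 34 of 46 symbols in 41 records, 40 of them at 1 FPKM or more, with a median r of 0.42 and 12 above 0.7. GPX5, a secreted glutathione peroxidase, stood at 1002, 2639 and 2573 FPKM in EA2_1, EA3_1 and EA4_1 and at most at 60.2 elsewhere. Lcn12, a lipocalin, stood at 189, 3360 and 1766 there and at most at 3.06 elsewhere. Both were as high in EA4_1 as in EA2_1 or higher, unlike ADAM28. CES5A, a secreted esterase of the epididymis, was lowest where ADAM28 was highest, at 2.20 FPKM in EA2_1 and 131 in EA3_1 against 1072 to 7110 elsewhere (r = -0.89). CD52, a sperm-coating antigen, ran the same way as CES5A, from 126 FPKM in EA2_1 to 138549 in EC3_2 (r = -0.86). GPX5, Lcn12, CES5A and CD52 were singled out after their values were seen. By abundance the list was led by Lcn5 (1951 to 113865 FPKM), NPC2 (5242 to 22288), CD52 and WFDC2 (5541 to 11307).

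Of the secretory peaks outside ADAM28, the authors' deposited tables called 0 of 20 in corpus over caput, 4 of 11 in cauda over caput and 4 of 15 in cauda over corpus. The shares over all peaks were 2.98%, 2.27% and 1.96%. In cauda over caput, peaks of CRISP2 (log2 fold 0.47, adjusted p = 0.0479) and ELSPBP1 (0.33, 0.0257) were higher in the authors' deposited table. DEFB118 had 2 lower peaks in the authors' deposited table, with log2 folds of -0.80 (adjusted p = 0.00479) and -1.57 (0.00661). These 11 peaks lay in 9 genes, so some share a gene. In cauda over corpus, where ADAM28 had no peak, DEFB118 (-0.77), DEFB119 (-0.88 and -0.47) and ELSPBP1 (0.25) were called in the authors' deposited table. The 15 peaks lay in 10 genes. On chromosome 12, the called DEFB118 peak (54893355 to 54893547) overlapped a called DEFB119 peak (54893534 to 54893783), so these calls are not independent.

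Most genes of the m6A machinery varied less than the median gene over the libraries in which ADAM28 varied 305-fold. The list had 14 of 15 symbols in 19 records, 18 of them at 1 FPKM or more, with a median log2 range of 0.86, under the 1.41 of all genes. The symbol not found was METTL3, so nothing is said here of its level. The exceptions were 5 of the 18, namely Rbm15 (1.84 to 9.46 FPKM), Cbll1 (1.34 to 4.53), YTHDC2 (2.30 to 6.52) and both records of YTHDF3, which reached at most 2.65 and 1.81 FPKM. The eraser ALKBH5 ranged from 73.3 to 127 FPKM, and the writer subunit WTAP, at its most abundant record, from 51.1 to 77.0. The readers Ythdf1 and Ythdc1 ranged from 32.3 to 48.6 and from 25.0 to 39.9. The median r with ADAM28 was 0.019, and 2 records were above 0.7, those of the eraser FTO (0.74, 9.11 to 19.4 FPKM) and of 1 Wtap record (0.73, 7.76 to 11.4). FTO and the 5 wider records were named after their values were seen. Of the list's 26, 22 and 20 peaks in the 3 comparisons, the 1 called was that of Virma, a writer subunit. That peak was higher in cauda than caput in the authors' deposited table (log2 fold 1.02, adjusted p = 0.0427). Over all peaks 2.98%, 2.27% and 1.96% were called, and nothing is read from 1 call.

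Among the 8 genes whose pattern was most like that of ADAM28, by Pearson r of log2(FPKM + 0.1) over the 9 libraries, 7 were EPHX1 (0.96), PYCR3 (0.95), EFNB1 (0.95), TMEM221 (0.95), MEGF10 (0.95), Inava (0.95) and NECAP2 (0.94). All genes had a median r of 0.013, and 5.53% were above 0.7. The 9 points include 2 high libraries, which can weigh heavily on such an r, and by Spearman's rho 0 of the 8 were among the top 8. The ranking also turned on EA4_1, where ADAM28 was low. Without EA4_1, 1 of the 8 kept its place, without EA3_1, 2 did, and without EA2_1, 5 did. TMEM221, a membrane protein, was the 1 of these 7 with a range like that of ADAM28. It stood at 39.8 FPKM in EA2_1, 36.9 in EA3_1 and 7.35 in EA4_1, and at 4.36, 0.513 and 0.230 in EB1_3, EB1_4 and EB2_1. It was at 0.815, 0.623 and 0.213 in EC2_2, EC3_2 and EC4_1, so its order at the top was that of ADAM28 but with EA4_1 well above EB1_3. EPHX1, an epoxide hydrolase of drug metabolism, stood at 12.8 FPKM in EA3_1 and 3.14 in EB2_1. The 6 others named had log2 ranges between 0.68 and 2.01, against 7.10 for ADAM28. EFNB1, a ligand of Eph receptors, had 2 of 2 peaks called in corpus over caput (2.98% of all peaks), 0 of 2 in cauda over caput (2.27%) and 1 of 3 in cauda over corpus (1.96%) in the authors' deposited tables. TMEM221 had no peak in any comparison.

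**Figure D5:**
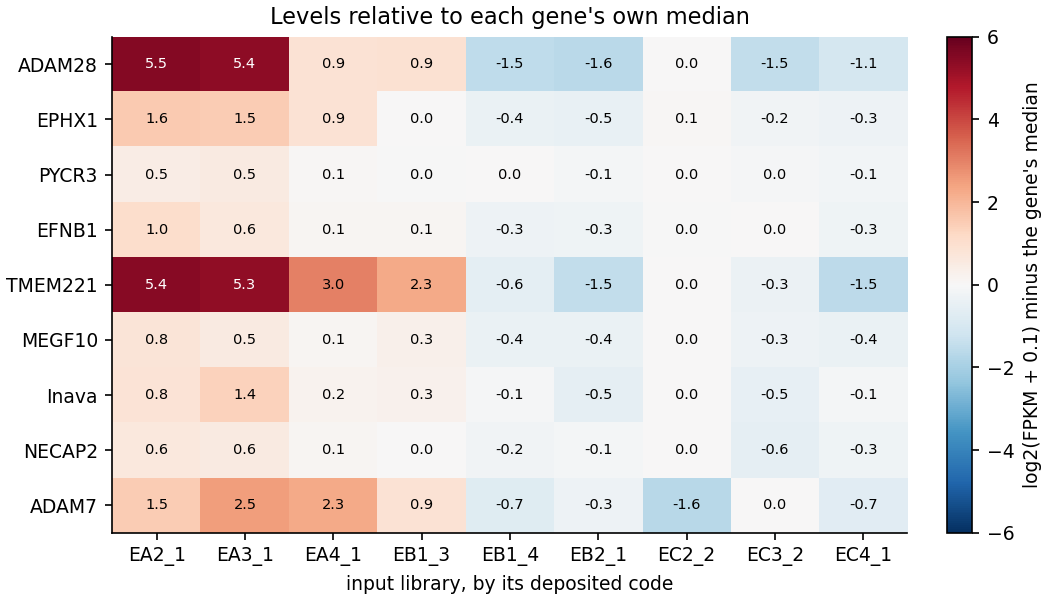
Level of ADAM28, the 7 named genes most like it and ADAM7 in each input library, as log2(FPKM + 0.1) minus the gene's own median over the 9 libraries (colour and printed value). ADAM28 and TMEM221 reach more than 5 above their median in EA2_1 and EA3_1, while ADAM7 is nearly as high in EA4_1 as in EA3_1.

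Markers of the cell types of the duct were summed in each library, and their part in the ADAM28 pattern was not tested. The clear and narrow cell markers, of the acidifying cells, were found for 8 of 8 symbols. Their sum was 42.7, 36.9 and 26.9 FPKM in EA2_1, EA3_1 and EA4_1. It was 15.4, 4.53 and 6.19 in EB1_3, EB1_4 and EB2_1, and 29.7, 7.76 and 6.73 in EC2_2, EC3_2 and EC4_1. This sum was highest in the libraries in which ADAM28 was highest (r = 0.84), but EA4_1 and EC2_2 came next, in which ADAM28 was under 1 FPKM. In EC2_2 a single gene, the carbonic anhydrase CA2, made 24.6 of the 29.7. Without CA2, the other 7 markers summed to 27.7, 21.3 and 20.3 in EA2_1, EA3_1 and EA4_1, 14.4 in EB1_3, and between 4.07 and 5.22 in the remaining libraries (r = 0.88). CA2 was left out after its values were seen, so nothing is read from the change in r. ATP6V0D2, still in that sum, was highest in EB1_3, where it made 9.77 of the 14.4 (r with ADAM28 of 0.54). Of their 9 peaks in corpus over caput, 5 were called lower in the authors' deposited table, in CFTR, DMRT2, ATP6V1B1, ATP6V1G3 and FOXI1, where 1.86% of all peaks were. In cauda over caput it was 1 of 7, in DMRT2, against 0.861% of all peaks. SLC4A9 was under 0.5 FPKM in each library.

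B cells, another known source of ADAM28, left little RNA. Of their 7 markers, all found, BLK, CD79B, MS4A1 and Pax5 were under 0.5 FPKM in each library, and the sum ranged from 3.38 in EB1_3 to 8.96 in EC2_2. It was 5.07 in EA2_1 and 4.04 in EA3_1, both within the range of the libraries in which ADAM28 was low. T cell markers summed to between 14.6 and 36.9 FPKM (6 of 6 found), macrophage markers to between 108 and 496 (5 of 6) and endothelial markers to between 24.4 and 58.7 (4 of 4). EMCN of the endothelial list had a peak called lower in corpus over caput (log2 fold -0.84) and in cauda over caput (-0.87) and 1 called higher in cauda over corpus (0.011) in the authors' deposited tables. These were the list's only calls among 10, 11 and 10 peaks, where 2.98%, 2.27% and 1.96% of all peaks were called. Principal cell markers, those of the secretory cells of the duct, summed to between 4681 and 16610 (9 of 10, SLC9A3 under 0.5 FPKM). The sum was thus at least 4681 in every library, but single markers were low in some. CST8 was at 0 FPKM in EB1_3, GPX5 at 1.23 in EB1_4 and CES5A at 2.20 in EA2_1. These markers were named after their values were seen. Basal cell markers summed to between 127 and 179 (5 of 5, KRT14 under 0.5 FPKM) and smooth muscle markers to between 3632 and 7365 (5 of 5).

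Sperm and spermatid markers (6 of 8 found) differed the most between libraries. They summed to 1113, 834 and 745 FPKM in EA2_1, EA3_1 and EA4_1, and to 3.45, 11.0 and 90.0 in EB1_3, EB1_4 and EB2_1. In EC2_2, EC3_2 and EC4_1 they summed to 2089, 350 and 349. The sum was largest in EC2_2, in which ADAM28 was at 0.456 FPKM (r = 0.38 over the 9 libraries). Akap4, a scaffold of the sperm tail, had the 1 peak of this list that the authors' deposited tables call, lower in corpus than caput (log2 fold -0.42). The list had 2, 4 and 1 peaks in the 3 comparisons, where 2.98%, 2.27% and 1.96% of all peaks were called.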

How the data were processed

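ADAM28, the gene lists and the marker lists were chosen with earlier results of these data known. Reads were handled with Trimmomatic, HISAT2 and deepTools per the submitters' processing notes, without versions; for the programs behind peaks, site scores and differential p-values: not given in the sources used here. Per the file headers, the deposited site lists give a combined score and a class per adenosine. A position listed repeatedly was counted 1 time at its top score and joined to a gene through the listed peak. The deposited comparison tables give per peak an unadjusted and an adjusted p-value, the fold (a ratio), its log2 value and the length without introns. Called means an adjusted p under 0.05. Starts were deposited counting from 0 and are printed with 1 added; candidate positions are printed as listed. Expression was deposited by the authors as FPKM, summing to between 774029 and 969271 per library. Likeness used log2(FPKM + 0.1). The text names ADAM28, the 8 genes most like it (1 of which is not reported here), its neighbours ADAM7 and ADAMDEC1 and, from each list, genes with a called peak and the 4 with the highest median FPKM; others are said to be chosen after their values were seen, as were ADAM32 and the marker genes. Fragment counts were recovered by a step tested on simulated data. No sample column was left unused (0). Python 3.11.15, numpy 2.4.6, pandas 2.3.3, scipy 1.17.1 and statsmodels 0.14.6 (Wilson intervals) were used.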

Additional observations from a re-analysis of the deposited data

How the results depend on the processing

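The corpus calls of ADAM28 depended on the threshold: 2 peaks were called at an adjusted p under 0.05, 1 at under 0.01, and 0 when a fold of at least 1.5 was also asked for. For cauda over caput the 3 calls became 3, 3 and 2 under the alternatives tried. The 37 caput candidates became 92 when repeated lines were counted, 18 when a listed peak had to lie wholly within the outermost compared ends, 6 with classed sites alone and 1 with very high confidence alone, and corpus and cauda stayed at 0 in each. Among genes that reach 1 FPKM, the percentiles of the highest and lowest libraries moved from 79.7 to 73.8 and from 19.2 to 3.64. The log2 range of 7.10 became 4.58 with a pseudocount of 1 and 8.09 with 0.01. Of the 8 genes most like ADAM28, 0 were kept with Spearman's rho, 2 with a pseudocount of 1 and 5 with no filter on low values. Leaving out each library in turn kept 1 (without EA4_1) to 7, with 2 without EA3_1, 3 without EB1_3, 4 without EC2_2 and 5 without EA2_1 or EB1_4. The cause of these changes was not tested beyond what each alternative itself removes. No paired analysis was possible because the peak tables hold no value per library, and the input codes carry no replicate number of the labels. The depth behind the peaks is unknown, and 13 to 29 fragments limit the 4 lowest ADAM28 levels.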

Other observations

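The codes of the 9 input libraries match no label, and no clustering of the libraries was run. Ordered by the level of ADAM28 alone, they showed a wide gap between EA3_1 and EB1_3 (24.8-fold). EA2_1 (24.9 FPKM) and EA3_1 (23.1) lay apart from the other 7, which were EB1_3 (0.933), EA4_1 (0.929), EC2_2 (0.456), EC4_1 (0.169), EC3_2 (0.103), EB1_4 (0.0933) and EB2_1 (0.0816). Some secretory genes put EA4_1 with EA2_1 and EA3_1 instead. OVCH2, an ovochymase-like protease, stood at 161, 295 and 46.4 FPKM in EA2_1, EA3_1 and EA4_1 and at most at 0.142 in the others. Lcn10, a lipocalin, stood at 159, 876 and 192 FPKM in the same libraries and at most at 0.148 in the others. These genes were chosen after their values were seen.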
